A study of Tachysurus fulvidraco x Tachysurus vachelli with 6 samples.

Results

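The glutathione and thiol antioxidant genes were followed in livers of hybrid yellow catfish (Tachysurus fulvidraco female × Pseudobagrus vachellii male) fed Siberian ginseng, Acanthopanax senticosus. Their members were the genes with Glutathione metabolism among the deposited KEGG pathways, or with peroxiredoxin, thioredoxin reductase, glutaredoxin, sulfiredoxin or metallothionein in the deposited description. Genes described as glutathione S-transferase and genes of the Peroxisome or Citrate cycle pathways were left out. Of the 28288 genes in the table, 89 matched a term, 18 of these were left out, and 71 remained as members. The pathway brought in 56 of them and the description alone the other 15. Metallothionein and glutathione reductase matched 0 descriptions, so the genes of these proteins are not among the members under these names.

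The T_liver group received 4 g/kg A. senticosus in the feed for 8 weeks (56 days), and the C_liver group received the same feed at 0 g/kg, with 3 libraries each. All fish were juveniles of the same cross, and all were starved before their livers were sampled. RNA was mixed within each group before poly(A) RNA was selected, and the number of fish behind a library is not stated, so n counts libraries. The P values below therefore measure the spread between libraries, which may be technical. The authors aligned the reads to the genome of T. fulvidraco, 1 of the parent species. Tables of sequences were not used here, so genes are identified by name, description, scaffold, start and end as deposited.

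Glutathione is a small peptide of glutamate, cysteine and glycine that is made in large amounts by the liver. Its thiol group gives electrons to glutathione peroxidases, which reduce peroxides, and to glutaredoxins, which reduce protein disulfides. Thioredoxin reductases pass electrons from NADPH to thioredoxin, which in turn serves peroxiredoxins and ribonucleotide reductase. Gamma-glutamyl transferases and some aminopeptidases take glutathione apart so that its amino acids can be used again. In the KEGG map the pathway also holds the enzymes of polyamine synthesis, because trypanosomes join glutathione to spermidine.

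Counts on genes summed to between 44153673 and 49343836 in T_liver libraries and to between 46303095 and 51459627 in C_liver libraries. C_liver replicate 3 stood apart, with correlations of log2 levels of 0.863 to 0.908 with the other libraries, against 0.903 to 0.938 among the others. Hepatocyte markers summed to between 30415 and 51962 CPM (counts scaled to library size after TMM normalization) in T_liver and to between 30829 and 33817 CPM in C_liver. Each of the 15 genes was counted, as the tissue label says. The highest sum, in T_liver replicate 1, held 9246 CPM of hp. T_liver replicates 2 and 3 had 128 and 1939 CPM of hp, and C_liver libraries 110 to 315 CPM. Of the 15 hepatocyte markers only hp was called by the criteria given below, higher in T_liver. Exocrine pancreas markers summed to between 282 and 832 CPM in T_liver and to between 64.9 and 322 CPM in C_liver. By the criteria given below 12 of 18 tested markers were called higher, against 1.49% of all tested genes. Red blood cell markers summed to between 491 and 2960 CPM in T_liver and to between 876 and 4536 CPM in C_liver. Macrophage and leukocyte markers summed to between 72.2 and 98.6 CPM in T_liver and to between 68.6 and 87.1 CPM in C_liver. Intestine markers stayed under 78 CPM with 4 of 7 genes at 0 in every library, and skeletal muscle markers reached at most 1.45 CPM with 8 of 11 at 0.

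Members with a mean FPKM (fragments scaled for gene length and library size, as deposited) of 1 or more in the 6 libraries entered the test together with every other such gene, 42 of the 71 members among 11521 genes. The counts of both groups were compared with edgeR's quasi-likelihood test. Called genes changed at least 2-fold (a log2 fold change of 1 in either direction) with P under 0.05 before adjustment, which are the thresholds of the study. Of the 42 tested members, 2 were called (4.76%), against 3.11% of all tested genes. Both were lower in T_liver, where 1.61% of all genes were called lower and 1.49% higher. They were lap3, an aminopeptidase, and glrx2, a glutaredoxin.

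After Benjamini-Hochberg adjustment over all genes of edgeR's quasi-likelihood test 0 members had an adjusted P under 0.05, and the smallest was 0.676. At an unadjusted P under 0.05 this test gave 3 members (7.14%), against 6.64% of all tested genes. DESeq2 and edgeR's exact test also gave 0 members at an adjusted P under 0.05. The share of members that were called was thus near the share of all genes.

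The fold changes of the members lay mostly below 0. The log2 fold change, T_liver relative to C_liver, was negative in 36 of 42 members (85.7%), against 50.4% of all tested genes. Its median was -0.34 over the members and -0.00 over all tested genes, with a range over the members of -1.33 to 0.62. It was -0.5 or lower in 15 members, between -0.5 and 0.5 in 26, and above 0.5 in 1. In a sample of whole liver, fewer cells of a type and less RNA per cell cannot be told apart.

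These negative values rested to a large part on C_liver replicate 3. That library held the highest CPM of the 6 in 26 of 42 members (61.9%), against 25.2% of all tested genes. Without it, 26 of 42 members were lower in T_liver, against 49.1% of all genes, their median was -0.09, and 0 were called, where 2.15% of all genes were called. The fold change moved closer to 0 in 34 members and turned positive in 10. At the other end, T_liver replicate 3 held the lowest CPM in 17 members, and the share of all tested genes lowest in that library was not counted.

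In the same C_liver replicate 3, red blood cell markers summed to 4536 CPM, against 876 and 921 CPM in C_liver replicates 1 and 2. The T_liver libraries had 1165, 2960 and 491 CPM of these markers. Intestine and pancreas markers were also highest among the C_liver libraries in replicate 3, at 77.8 and 322 CPM. T_liver replicates 1, 2 and 3 had 832, 282 and 638 CPM of the pancreas markers. Most of the intestine sum in C_liver replicate 3 came from cdh17, at 61.2 CPM, a gene with 31.2 to 52.0 CPM in the other libraries. The part of these other cell types in the members' levels was not tested.

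**Figure D1:**
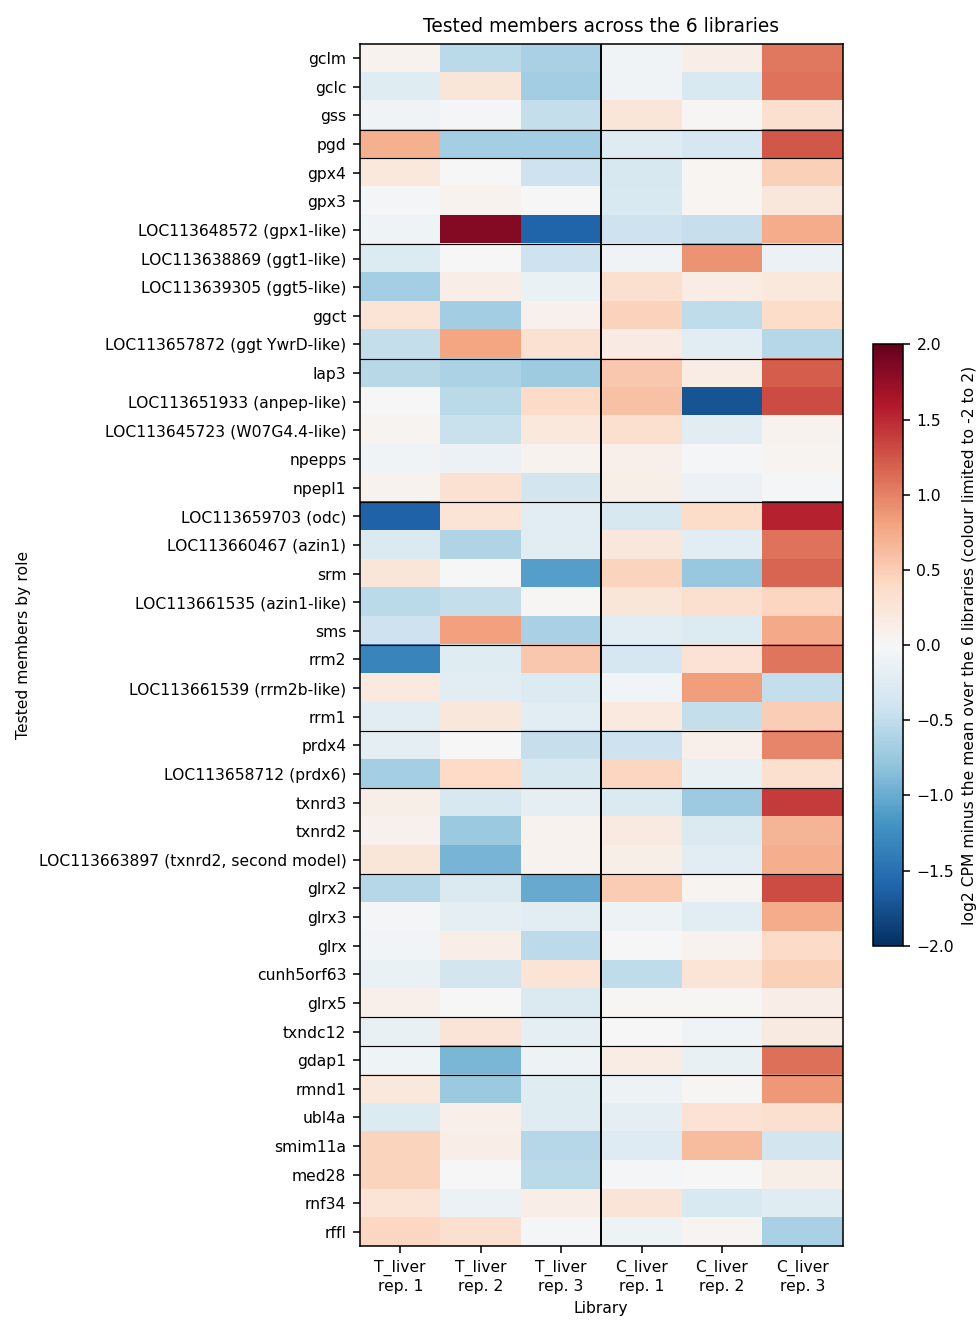
Heat map of the 42 tested members, grouped by role with black lines between roles, in the 3 T_liver libraries (left) and the 3 C_liver libraries (right). Colour is the log2 CPM minus the mean of that gene over the 6 libraries, limited to -2 to 2, and the C_liver replicate 3 column holds the highest value in 26 of the 42 rows.

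Members with low levels had a lower median fold change. Over the 21 members with a mean FPKM of 1 to 5 the median log2 fold change was -0.54, against 0.01 over all 6084 tested genes at these levels. Over the other 21 members, with a mean FPKM of at least 5, it was -0.15, against -0.03 over all 5437 such genes. Without C_liver replicate 3 the medians of these members were -0.14 and 0.02. The spread between libraries, as the coefficient of variation of the CPM, had a median over the members of 22.8% in T_liver and 33.8% in C_liver. Over all tested genes the medians were 24.2% in T_liver and 25.3% in C_liver.

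The levels of the members covered a wide range. By mean FPKM, 6 of the 42 tested members reached 50, another 7 lay between 10 and 50, and 29 were under 10. Most abundant was gpx3, glutathione peroxidase 3, which in mammals is secreted into the plasma (scaffold NW_020847945.1, 309141 to 315013). Its FPKM was 1702, 1760 and 2069 in T_liver replicates 1, 2 and 3, against 1644, 1993 and 1848 in C_liver replicates 1, 2 and 3, which overlap. All values of 3 libraries below follow this order of replicates.

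Next came LOC113658712, peroxiredoxin-6, which uses glutathione to reduce peroxides of phospholipids (scaffold NW_020848024.1, 232502 to 240503). It had 341, 701 and 521 FPKM in T_liver, against 858, 551 and 619 FPKM in C_liver, so each of its libraries lay below each of those of gpx3. The next 3 members were gpx4, prdx4 and glrx, with mean FPKM of 87.1, 82.0 and 72.6. Their ranges over the 6 libraries overlapped, at 73.2 to 103 for gpx4, 64.8 to 133 for prdx4 and 56.4 to 80.6 for glrx, so their order was not settled by these libraries. Lowest of the 6 was glrx5, with a mean of 50.1 FPKM and a range of 46.1 to 56.5, which overlapped that of glrx only at its upper end.

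**Figure D2:**
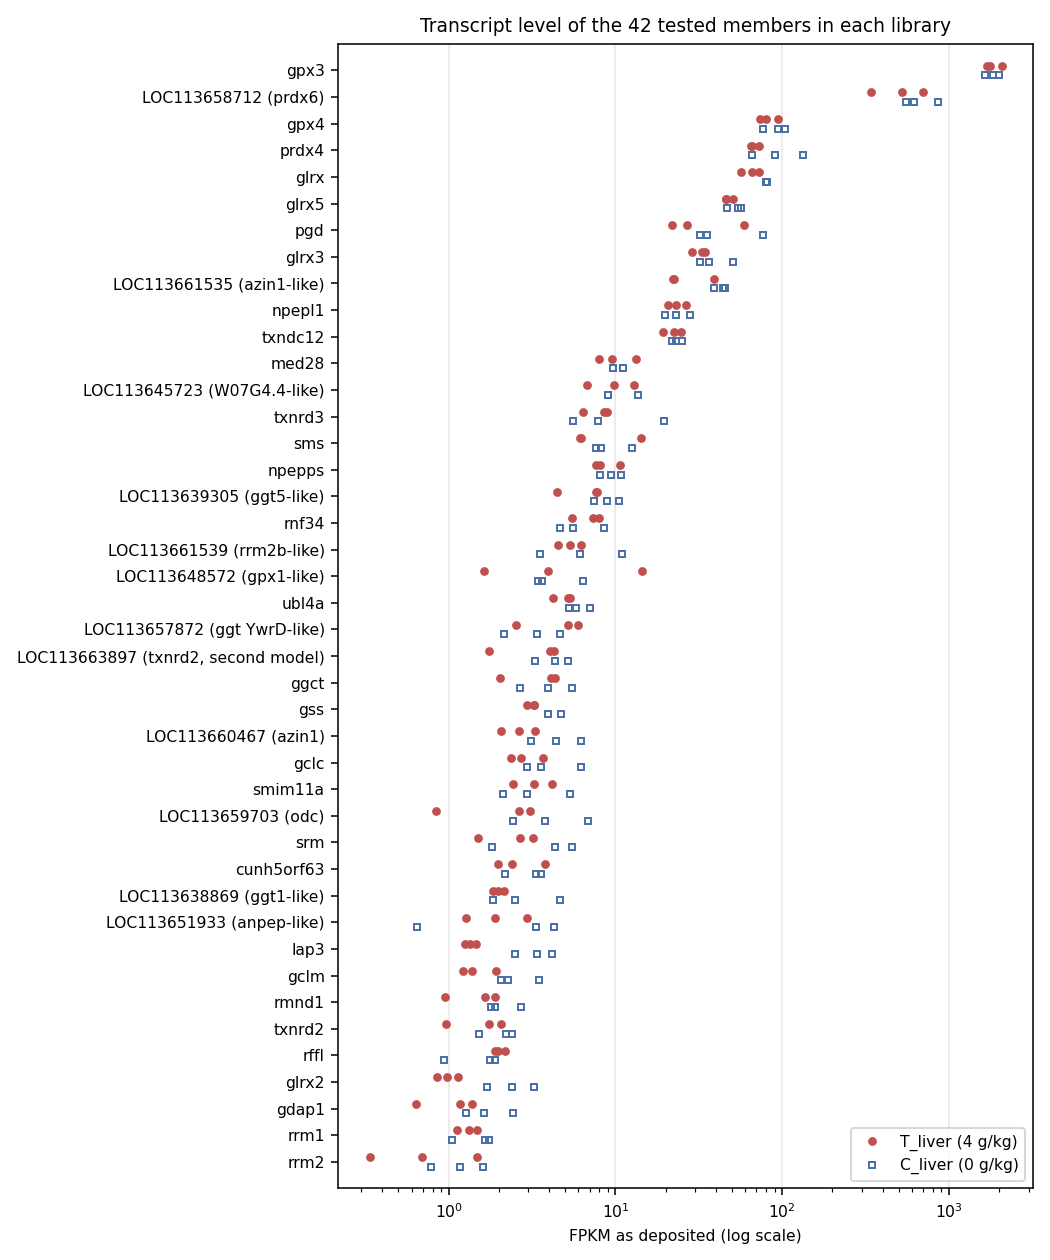
FPKM as deposited (log axis) of the 42 tested members in each library, ordered by mean FPKM, with the T_liver libraries as filled circles above the C_liver libraries as open squares. gpx3 and peroxiredoxin-6 (LOC113658712) stand above the other members, with mean FPKM of 1836 and 599, and 29 members have means under 10.

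The enzymes that make glutathione were not called. Glutamate-cysteine ligase, the rate-limiting step, consists of a catalytic subunit, gclc (scaffold NW_020847968.1, 1605555 to 1615342), and a regulatory subunit, gclm (scaffold NW_020847972.1, 1905580 to 1912858). gclc had 9.22, 12.9 and 6.75 CPM in T_liver, against 10.4, 8.90 and 23.3 CPM in C_liver. The groups overlapped, and only C_liver replicate 3 lay above all T_liver libraries. Its log2 fold change was -0.56 ± 0.43 (SE, edgeR's Benjamini-Hochberg adjusted P = 0.747), and -0.00 without C_liver replicate 3.

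gclm had 3.85, 2.51 and 2.32 CPM in T_liver, against 3.48, 4.02 and 7.63 CPM in C_liver. T_liver replicate 1 lay within the C_liver range, and the other T_liver libraries lay below it. In FPKM the groups of gclm were separate, with T_liver lower. For gclm the log2 fold change was -0.80 ± 0.42 (SE, edgeR's Benjamini-Hochberg adjusted P = 0.676), and -0.37 without C_liver replicate 3.

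Glutathione synthetase, gss, adds glycine in the last step (scaffold NW_020848400.1, 5728802 to 5741060). It had 7.08, 7.30 and 5.36 CPM in T_liver, against 8.79, 7.58 and 9.36 CPM in C_liver. All 3 T_liver libraries lay below all 3 C_liver libraries, but by less than the fold threshold, with a log2 fold change of -0.38 ± 0.25 (SE, edgeR's Benjamini-Hochberg adjusted P = 0.708) and -0.26 without T_liver replicate 3. Such separate groups were found in 6 of the 42 members (14.3%), each lower in T_liver, against 13.1% of all tested genes in either direction, 7.1% with T_liver lower and 5.96% with T_liver higher. In the deposited FPKM values 6 of the 42 members (14.3%) were also separate, with T_liver lower in each. Over all tested genes, 11.6% were separate in FPKM in either direction and 8.29% with T_liver lower. Only 4 members, lap3, glrx2, gss and LOC113661535, were separate on both scales. The share of all tested genes separate on both scales was not counted, so this number has no comparison. For a single gene with 3 libraries against 3, an exact 2-sided permutation test cannot give a p below 0.1.

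The electrons for reducing oxidized glutathione and thioredoxin come from NADPH, which the pentose phosphate pathway supplies. An NADPH-producing enzyme of that pathway, pgd (scaffold NW_020848014.1, 1881981 to 1889313), had 123, 46.9 and 47.2 CPM in T_liver, against 63.2, 59.7 and 177 CPM in C_liver. One library in each group was high, T_liver replicate 1 and C_liver replicate 3, and the groups overlapped. The log2 fold change was -0.47 ± 0.57 (SE, edgeR's Benjamini-Hochberg adjusted P = 0.841) and turned to 0.24 without C_liver replicate 3.

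Of 7 glutathione peroxidases, 3 were tested, and edgeR called 0 and gave 0 an unadjusted P under 0.05. In CPM, gpx3 had 2512, 2672 and 2561 in T_liver, against 2073, 2615 and 3009 in C_liver. The T_liver libraries lay inside the C_liver range, and the log2 fold change was 0.01 ± 0.26 (SE, edgeR's Benjamini-Hochberg adjusted P = 0.995). gpx3 took between 54.7% and 67.0% of the summed CPM of all members. That sum was 3836, 4366 and 3821 CPM in T_liver, against 3790, 4089 and 5195 CPM in C_liver. Without gpx3 it was 1324, 1694 and 1260 CPM in T_liver, against 1717, 1474 and 2186 CPM in C_liver, again with overlap.

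gpx4 reduces lipid peroxides inside membranes (scaffold NW_020847798.1, 2888362 to 2891695). It had 101, 87.0 and 65.2 CPM in T_liver, against 69.5, 89.6 and 121 CPM in C_liver, with a log2 fold change of -0.15 ± 0.30 (SE, edgeR's Benjamini-Hochberg adjusted P = 0.908) that turned to 0.09 without C_liver replicate 3. The model described as similar to glutathione peroxidase 1, LOC113648572, varied most of all tested members, by a factor of 10.8 between libraries. It had 4.98, 18.8 and 1.74 CPM in T_liver, against 3.95, 3.85 and 8.86 CPM in C_liver. Both the highest and the lowest of the 6 libraries were T_liver libraries, replicates 2 and 3. The log2 fold change of this model, 0.62 ± 0.80 (SE, edgeR's Benjamini-Hochberg adjusted P = 0.849), was the highest of the tested members and ranged from -0.72 to 1.12 when 1 library was left out. LOC113648572 overlaps LOC113648575 on the other strand by 163 bp, and use of strand is not given. Of the untested peroxidases, gpx2 had 149 counts in T_liver replicate 1 and none in the other 5 libraries.

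Peroxiredoxins reduce peroxides through a reactive cysteine. Peroxiredoxin-6, LOC113658712, had 353, 747 and 453 CPM in T_liver, against 759, 507 and 707 CPM in C_liver. T_liver replicate 2 lay near the highest C_liver library, while the other T_liver libraries lay below the C_liver range. For peroxiredoxin-6 the log2 fold change was -0.35 ± 0.36 (SE, edgeR's Benjamini-Hochberg adjusted P = 0.804). Leaving out T_liver replicate 1 gave -0.12, and leaving out T_liver replicate 2 gave -0.69. The model overlaps plpp6 on the other strand by 2898 bp, and whether the counting used strand is not given in the sources used here, so reads of these genes may not be told apart.

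prdx4, the peroxiredoxin of the endoplasmic reticulum, had 95.4, 108 and 78.7 CPM in T_liver, against 81.1, 116 and 213 CPM in C_liver. Only C_liver replicate 3 was far from the others, and the log2 fold change of -0.54 ± 0.39 (SE, edgeR's Benjamini-Hochberg adjusted P = 0.729) was -0.07 without it. Sulfiredoxin, srxn1, which repairs overoxidized peroxiredoxins, was not tested. It had 0.650, 0.266 and 0.319 CPM in T_liver, against 0.960, 0.532 and 0.611 CPM in C_liver, with T_liver replicate 1 inside the C_liver range.

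All 3 thioredoxin reductases had negative log2 fold changes, between -0.55 and -0.39, and none was called. The most abundant, txnrd3 (scaffold NW_020848416.1, 9022583 to 9034630), had 33.8, 24.9 and 27.2 CPM in T_liver, against 25.5, 18.8 and 81.5 CPM in C_liver. C_liver replicate 3 was far above the others, and C_liver replicate 2 was the lowest of all. The log2 fold change was -0.55 ± 0.54 (SE, edgeR's Benjamini-Hochberg adjusted P = 0.795) with all libraries and 0.37 without C_liver replicate 3, so its direction rested on that library. The other models, txnrd2 and LOC113663897, lie beside each other on the same strand of scaffold NW_020848118.1 (21800 to 35622 and 47158 to 51864). Both are described as the mitochondrial enzyme and may be parts of the same gene, which was not tested. They were also highest in C_liver replicate 3, with log2 fold changes of -0.39 each and of -0.11 and -0.07 without it.

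Glutaredoxins use glutathione to reduce disulfides or to carry iron-sulfur clusters. All 5 tested members of this family had a negative fold change and their highest level in C_liver replicate 3. glrx2, a mitochondrial glutaredoxin in mammals (scaffold NW_020847804.1, 1959696 to 1964792), was the only one called. It had 0.915, 1.11 and 0.675 CPM in T_liver, against 1.92, 1.41 and 3.36 CPM in C_liver, which are 38, 50 and 36 counts in T_liver and 102, 77 and 132 counts in C_liver. All T_liver libraries lay below all C_liver libraries. It fell by 1.31 on the log2 scale (SE 0.52, unadjusted P = 0.038, adjusted P = 0.676 by edgeR's quasi-likelihood test with Benjamini-Hochberg adjustment). Leaving out 1 library kept its call in 1 of 6 cases, that without C_liver replicate 2, with log2 fold changes between -1.55 and -0.89.

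Cytosolic glrx, the most abundant glutaredoxin, had 95.8, 109 and 69.0 CPM in T_liver, against 99.5, 104 and 130 CPM in C_liver. Its groups overlapped in CPM but were separate in FPKM, with T_liver lower. The model overlaps rhobtb3 on the other strand by 896 bp, and use of strand is not given. The log2 fold change of glrx was -0.28 ± 0.27 (SE, edgeR's Benjamini-Hochberg adjusted P = 0.793). The value was -0.12 without T_liver replicate 3 and -0.15 without C_liver replicate 3. glrx3, which handles iron-sulfur clusters in the cytosol, had a log2 fold change of -0.33 that was 0.04 without C_liver replicate 3. Its mitochondrial counterpart glrx5 had one of -0.11.

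**Figure D3:**
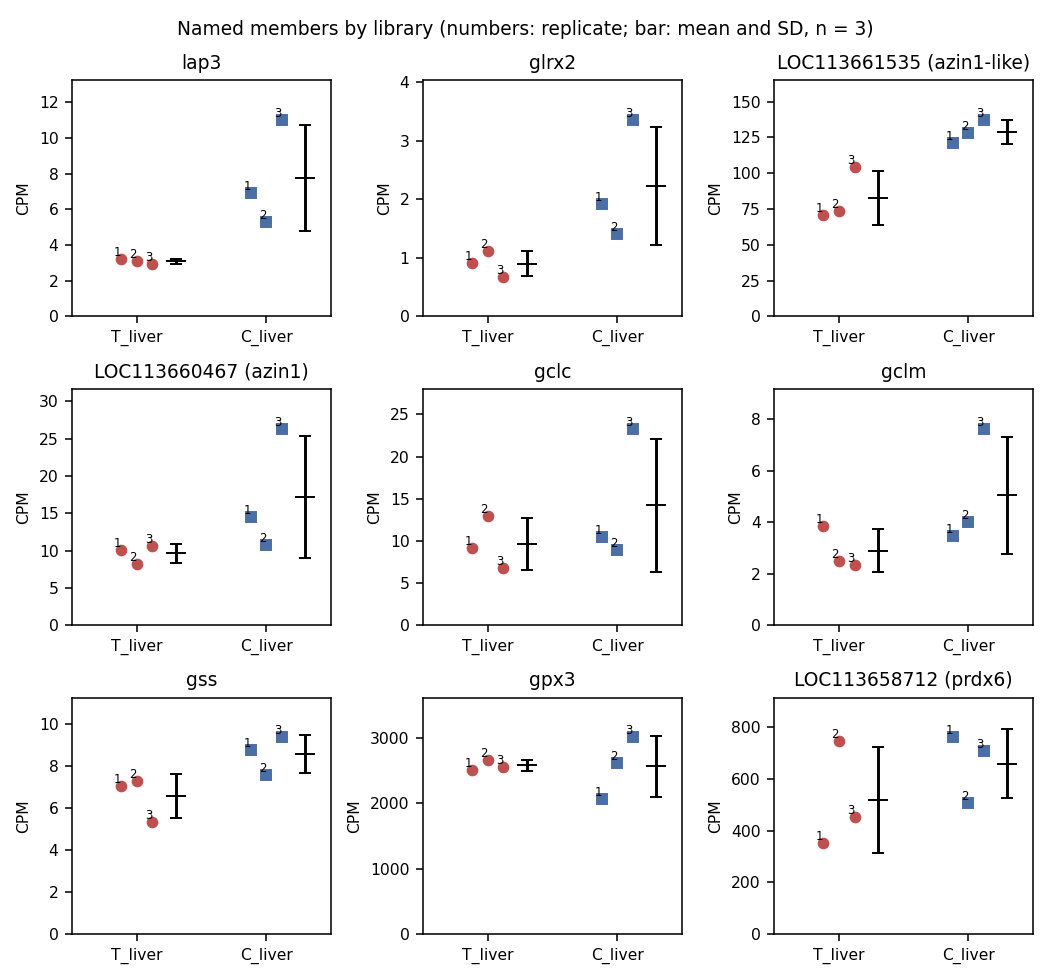
CPM of 9 members in each library, with T_liver (circles) left of C_liver (squares), the replicate number beside each point, and a bar for the mean and SD of 3 libraries. For lap3, glrx2, both antizyme inhibitors and gss all T_liver libraries lie below all C_liver libraries, and C_liver replicate 3 lies far above the others for gclc and gclm.

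Of 11 aminopeptidases in the pathway, only some of which release amino acids from peptides such as cysteinylglycine, 5 were tested. lap3, cytosol aminopeptidase (scaffold NW_020848046.1, 821751 to 828310), had the largest fold change of the tested members. It had 3.23, 3.08 and 2.92 CPM in T_liver, against 6.91, 5.27 and 11.0 CPM in C_liver. The T_liver libraries lay close together, below the lowest C_liver library. lap3 fell by 1.33 on the log2 scale (SE 0.34, unadjusted P = 0.00569, adjusted P = 0.676 by edgeR's quasi-likelihood test with Benjamini-Hochberg adjustment). Without C_liver replicate 3 the log2 fold change was -0.98 with an unadjusted P of 0.018 in edgeR's fit, just short of the fold threshold, and the call was kept in each of the other 5 cases with 1 library left out.

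The other tested aminopeptidases were not called. npepl1, the most abundant of them, had 58.7, 69.2 and 43.7 CPM in T_liver, against 60.8, 51.9 and 55.3 CPM in C_liver. Its groups overlapped, and the log2 fold change of 0.03 ± 0.25 (SE, edgeR's Benjamini-Hochberg adjusted P = 0.978) turned to -0.01 with scaling by total counts. npepps, the puromycin-sensitive aminopeptidase, spanned only 37.6 to 43.9 CPM over the 6 libraries, with a log2 fold change of -0.08.

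Gamma-glutamyl transferases cut glutathione at the cell surface. LOC113639305, described as similar to gamma-glutamyltransferase 5, had 12.3, 21.7 and 17.9 CPM in T_liver, against 24.5, 21.7 and 22.7 CPM in C_liver. T_liver replicate 2 lay just under C_liver replicate 2 in CPM, and the groups overlapped in FPKM. For this model the log2 fold change was -0.41 ± 0.26 (SE, edgeR's Benjamini-Hochberg adjusted P = 0.708). Without T_liver replicate 1 it was -0.20. LOC113638869, similar to gamma-glutamyltranspeptidase 1, had 4.07, 4.88 and 3.67 CPM in T_liver, against 4.71, 9.12 and 4.53 CPM in C_liver. It was high only in C_liver replicate 2, and its log2 fold change was -0.54 ± 0.36 (SE, edgeR's Benjamini-Hochberg adjusted P = 0.715). Without C_liver replicate 2 this value was -0.13. Its model overlaps that of LOC113638876, which has the same description, by 22034 bp on the same strand, so the counts of both are uncertain. Unlike these, LOC113657872, described as similar to the transferase YwrD, had a log2 fold change of 0.48 ± 0.36 (SE, edgeR's Benjamini-Hochberg adjusted P = 0.746), with 12.6, 30.2 and 21.5 CPM in T_liver and 19.5, 14.9 and 11.7 CPM in C_liver. LOC113657872 overlaps tm4sf4 on the other strand by 2817 bp. As use of strand is not given, reads of these genes may not be told apart.

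The polyamine enzymes had the lowest median log2 fold change among the roles with at least 3 tested members, at -0.65 over 5, all negative, and -0.38 without C_liver replicate 3. By edgeR's criteria 0 of the 5 were called, and 1 had an unadjusted P under 0.05. This was LOC113661535, similar to antizyme inhibitor 1, a protein that frees ornithine decarboxylase from its inhibitor antizyme (scaffold NW_020848070.1, 5557341 to 5565261). It had 70.5, 73.6 and 104 CPM in T_liver, against 121, 128 and 137 CPM in C_liver. The groups did not overlap, and C_liver replicate 3 was only slightly above the other C_liver libraries. Its log2 fold change was -0.64 ± 0.26 (SE, unadjusted P = 0.0416, adjusted P = 0.676 by edgeR's quasi-likelihood test with Benjamini-Hochberg adjustment), short of the fold threshold, and -0.58 without C_liver replicate 3.

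Both antizyme inhibitor models carry the KEGG entry of ornithine decarboxylase, whose relatives they are, and were kept with the polyamine enzymes. The further model, LOC113660467, has the description antizyme inhibitor 1 itself (scaffold NW_020847769.1, 396246 to 405239). It had 10.2, 8.21 and 10.6 CPM in T_liver, against 14.5, 10.7 and 26.4 CPM in C_liver. T_liver replicate 3 came within a small margin of C_liver replicate 2, and the groups were separate in CPM but overlapped in FPKM. The log2 fold change was -0.83 ± 0.36 (SE, edgeR's Benjamini-Hochberg adjusted P = 0.676), and -0.38 without C_liver replicate 3. Leaving out C_liver replicate 2 instead gave -1.08 and a call. LOC113660467 overlaps LOC113660473 on the other strand by 205 bp, and use of strand is not given.

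Ornithine decarboxylase, LOC113659703, makes putrescine in the first step of polyamine synthesis (scaffold NW_020848035.1, 10502835 to 10507839). It had 2.17, 8.07 and 5.68 CPM in T_liver, against 5.37, 8.61 and 19.3 CPM in C_liver. The groups overlapped, with T_liver replicate 1 the lowest and C_liver replicate 3 the highest. Its log2 fold change was -1.06 ± 0.60 (SE, edgeR's Benjamini-Hochberg adjusted P = 0.682), past the fold threshold but not the P threshold, and -0.39 without C_liver replicate 3. The spermidine and spermine synthases srm and sms had log2 fold changes of -0.65 and -0.09, which were -0.14 and 0.33 without C_liver replicate 3.

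Ribonucleotide reductase, which takes electrons from glutaredoxin or thioredoxin to make the building blocks of DNA, had 3 tested members and 0 calls by edgeR, with 0 at an unadjusted P under 0.05. Its most abundant member, LOC113661539 (similar to subunit M2 B), had 12.4, 9.20 and 8.86 CPM in T_liver, against 10.3, 19.2 and 7.74 CPM in C_liver. C_liver replicate 2 was the highest and C_liver replicate 3 the lowest, unlike most members. The log2 fold change was -0.29 ± 0.37 (SE, edgeR's Benjamini-Hochberg adjusted P = 0.845), and 0.17 without C_liver replicate 2.

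Among the remaining roles, txndc12, a thioredoxin-like protein of the endoplasmic reticulum, had 27.0, 35.8 and 26.3 CPM in T_liver, against 29.9, 28.5 and 33.8 CPM in C_liver. Between the groups the log2 fold change was -0.05 ± 0.23 (SE, edgeR's Benjamini-Hochberg adjusted P = 0.960). gdap1, a mitochondrial outer membrane protein related to glutathione transferases, had 2.84, 1.60 and 2.81 CPM in T_liver, against 3.35, 2.73 and 6.51 CPM in C_liver. T_liver replicates 1 and 3 lay within the C_liver range, and its log2 fold change was -0.80 ± 0.46 (SE, edgeR's Benjamini-Hochberg adjusted P = 0.684), and -0.33 without C_liver replicate 3.

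The deposited pathway also brought in 9 genes described as proteins unrelated in name to their KEGG entry. These are rnf34, LOC113639361, rffl and LOC113649839, described as ubiquitin ligases under the entry of gamma-glutamyltransferase 5, med28 and LOC113653107 under that of cytosol aminopeptidase, and rmnd1, smim11a and ubl4a. Of these, 6 were tested and 0 were called by edgeR, with 0 at an unadjusted P under 0.05. Most abundant was med28, a subunit of the mediator complex of transcription, with 13.2, 9.62 and 6.61 CPM in T_liver, against 9.39, 9.73 and 10.5 CPM in C_liver, and a log2 fold change of -0.01 ± 0.29 (SE, edgeR's Benjamini-Hochberg adjusted P = 0.996). Outside these 9 genes, 32 of 36 tested members were lower in T_liver and the median log2 fold change was -0.38. This division was chosen after the data were seen.

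**Figure D4:**
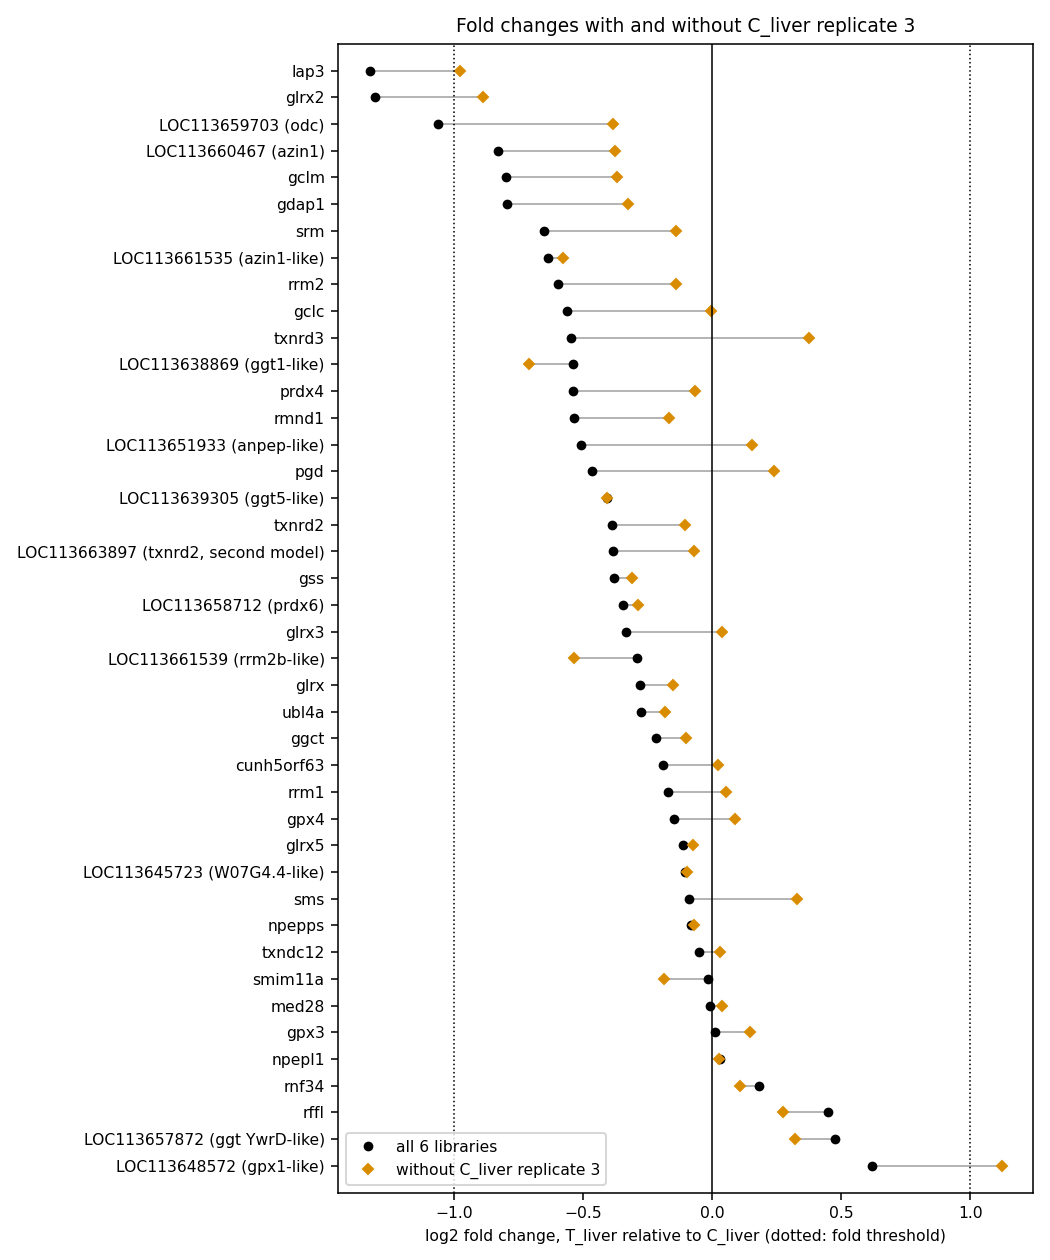
Log2 fold change, T_liver relative to C_liver, of the 42 tested members with all 6 libraries (black circles) and without C_liver replicate 3 (orange diamonds), joined by a line. Dotted lines mark the fold threshold of 1 in each direction, and 34 of the 42 members lie closer to 0 without that library.

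The 29 untested members were genes with little or no liver signal, the highest at a mean FPKM of 0.787. In 7 of them no library had a count, among them the grxcr genes, which in mammals belong to the sensory cells of the ear, and 9 had counts in every library. Without the FPKM limit, 64 members had a count and were fitted. By the same criteria 5 of these 64 were called, against 774 of all 20547 genes with a count (3.77%). The calls added in this way were LOC113639361, described as a ubiquitin ligase, LOC113659678, a further ornithine decarboxylase model, and gpx2. LOC113639361 had 19, 52 and 91 counts in T_liver, against 152, 97 and 294 counts in C_liver. LOC113659678 had no count in any T_liver library, against 33, 0 and 32 counts in C_liver. The call of gpx2 rested on the 1 library with counts described above.

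Genes around the pathway were counted in the same way. Of 41 genes of the NRF2 response and the thioredoxin partners, 32 were tested, and T_liver was lower in 20 and higher in 12. Their median log2 fold change was -0.11, and 0.00 without C_liver replicate 3. NRF2 itself, nfe2l2, which turns on many antioxidant genes in vertebrates, had 74.4, 98.3 and 57.1 CPM in T_liver, against 91.2, 93.0 and 123 CPM in C_liver (log2 fold change -0.42 ± 0.29 SE, edgeR's Benjamini-Hochberg adjusted P = 0.722). By edgeR's criteria 2 of the 32 (6.25%) were called, both lower, against 3.11% of all tested genes called and 1.61% called lower. Both are models of slc3a2, a heavy chain of amino acid transporters, among them the cystine importer. LOC113646906 had 4.86, 7.23 and 8.64 CPM in T_liver, against 24.6, 17.2 and 7.05 CPM in C_liver, and LOC113662102 had nearly the same level in each library. Their groups overlapped through C_liver replicate 3, here the lowest C_liver library, and as reads may be shared between the models they are uncertain as separate genes. A further tested slc3a2 model, LOC113635221, had a log2 fold change of 0.78 ± 0.36 (SE, edgeR's Benjamini-Hochberg adjusted P = 0.676) and was not called, with 13.2, 27.2 and 15.4 CPM in T_liver, against 14.2, 10.7 and 7.66 CPM in C_liver. The partner chain in the cystine importer is slc7a11. Its tested models LOC113645602 and LOC113647386 had log2 fold changes of -1.37 ± 1.03 and -1.05 ± 1.14 (SE), and neither was called.

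The genes of a thioredoxin and of the mitochondrial superoxide dismutase had negative fold changes and were not called. The thioredoxin gene txn had 12.3, 25.0 and 14.7 CPM in T_liver, against 25.2, 20.4 and 36.3 CPM in C_liver (log2 fold change -0.66 ± 0.35 SE, edgeR's Benjamini-Hochberg adjusted P = 0.676). A further, more abundant thioredoxin model, LOC113663147, had 111, 43.2 and 85.6 CPM in T_liver, against 82.6, 102 and 423 CPM in C_liver. Its log2 fold change was -1.34 ± 0.68 (SE, edgeR's Benjamini-Hochberg adjusted P = 0.676) and it was not called. Only C_liver replicate 3 was far above the others. The dismutase gene sod2 had 41.5, 70.4 and 43.3 CPM in T_liver, against 67.7, 74.2 and 112 CPM in C_liver (log2 fold change -0.71 ± 0.32 SE, edgeR's Benjamini-Hochberg adjusted P = 0.676). For txn and sod2, T_liver replicate 2 lay within the C_liver range. Among the 12 higher genes of the list was the txnip model LOC113662807, with a log2 fold change of 1.11 ± 0.49 (SE, edgeR's Benjamini-Hochberg adjusted P = 0.676), not called. Another was txn2, at 0.29 ± 0.24 (SE, edgeR's Benjamini-Hochberg adjusted P = 0.763). Selenoprotein P, selenop, which carries selenium in plasma, was the most abundant of the list in CPM, with 8097, 11108 and 6970 CPM in T_liver and 7489, 7778 and 5128 CPM in C_liver (log2 fold change 0.36 ± 0.30 SE, edgeR's Benjamini-Hochberg adjusted P = 0.765).

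Of 14 genes that make or use cysteine and methionine, 11 were tested, 6 were lower in T_liver, and 0 were called by edgeR. The median log2 fold change of these genes was -0.02. At an unadjusted P under 0.05 there was 1, gnmt, which uses up methyl groups from methionine. It had 117, 173 and 143 CPM in T_liver, against 210, 273 and 298 CPM in C_liver, in groups that did not overlap. The log2 fold change of gnmt was -0.85 ± 0.28 (SE, unadjusted P = 0.0183, adjusted P = 0.676 by edgeR's quasi-likelihood test with Benjamini-Hochberg adjustment). The 18 genes left out by the rule, mostly glutathione S-transferases, were all tested. T_liver was lower in 17 of them, against 50.4% of all tested genes, and 1 was called (5.56%), against 3.11%. The called gene was LOC113636308, with 0.891, 0.865 and 0.468 CPM in T_liver, against 1.47, 1.28 and 4.86 CPM in C_liver, again highest in C_liver replicate 3. Over these 18 genes the median log2 fold change was -0.38. Without C_liver replicate 3 the median was -0.17 and 12 of the 18 were lower.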

How the data were processed

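Liver RNA of 3 T_liver and 3 C_liver libraries was analysed. After read filtering and alignment with HISAT to the genome of T. fulvidraco, the authors deposited, per gene, counts of reads (whole numbers, without normalization) and FPKM values. The submitters' processing notes list HISAT2 2.0, StringTie 1.3.0, Bowtie 0.12.2 and the mouse build mm8 without a role. Paper and labels name different Illumina instruments. Genome build, use of strand and counting of multi-mapped reads: not given in the sources used here.

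Members were found by pathway and description, and grouped by role. The members and lists were chosen with earlier results of these data known. Genes reaching a mean FPKM of 1 were tested over the whole table with edgeR 4.0.16 (R 4.3.3), using TMM factors, a trended dispersion, the quasi-likelihood test and Benjamini-Hochberg adjustment. The standard errors come from its F statistics. The common biological coefficient of variation was 0.426. Counts per library were between 44153673 and 51459627. The fit was tested on counts simulated from its own means and dispersion, with no library set apart, so the simulation does not cover that feature of these data.

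Named with values per library were called members, members with separate groups and a log2 fold change of 0.5 or more in size, the member with the highest FPKM of each role, and defining enzymes of the pathway. The values of 1 untested member are not reported here. prdx4, LOC113657872, LOC113659703, LOC113639361, LOC113659678, gpx2, the genes outside the members, and those named with a fold change alone, were chosen after their values were seen. gss and LOC113639305 are also named as a defining enzyme and as the highest of its role.

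Alternatives were RLE size factors, scaling by total counts, DESeq2 1.42.0, edgeR's exact test, limma 3.58.1 on log2(FPKM + 1) and log2(FPKM + 0.1), no FPKM limit, a limit of 5, a replicate block, leaving out pancreas transcripts, and leaving out each library. Leaving out members described as another protein was added after the data were seen.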

Additional observations from a re-analysis of the deposited data

How the results depend on the processing

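The count of 2 called members was 2 under RLE size factors, scaling by total counts, DESeq2, edgeR's exact test, limma on log2(FPKM + 0.1), without pancreas transcripts and without members described as another protein. Leaving out pancreas transcripts only removed the marker genes from the fit, and the amount of pancreas in each library was not adjusted for. It was 0 with limma on log2(FPKM + 1), 5 without the FPKM limit and 0 at a limit of 5 FPKM, where 21 members were tested. lap3 and glrx2, with mean FPKM of 2.35 and 1.72, were not tested at that limit, so their calls could not be kept there. Leaving out 1 library gave 0 (C_liver replicate 3) to 3 (C_liver replicate 2), and 1, lap3, in each of the other 4 cases. At the limit of 5 FPKM 16 of 21 members were lower and the median log2 fold change was -0.12. With the FPKM limit of 1, the median over the 42 members ranged from -0.46 to -0.086 when 1 library was left out. Over all genes, DE genes numbered 774 without the FPKM limit (3.77% of 20547) and 175 at the limit of 5 FPKM (3.22% of 5437), against 358 (3.11% of 11521). Over the same 11521 genes they numbered 643 without T_liver replicate 2, 628 without C_liver replicate 2 and 190 with limma on log2(FPKM + 1).

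Whether replicate numbers pair the libraries could not be settled, as deviations from the mean of 3 libraries depend on each other. Deviations of libraries with the same number correlated at -0.11, 0.04 and -0.14, and not every library correlated best with its own number. With the replicate block 2 members were called, lap3 and LOC113659703, with 36 lower and a median of -0.27, and glrx2 at -1.24 was no longer called.

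Of 328 alternative values of 21 named members, 296 kept direction and call. Only lap3 and glrx2 were called in the main fit, so for the others a kept call means that they stayed uncalled. The size of the fold change did not enter this count. For gclc, -0.56 with all libraries and -0.0047 without C_liver replicate 3 counted as kept. A change of sign was found in 22 values of 9 members. For npepl1 the log2 fold change was -0.0087 with scaling by total counts and -0.0060 with limma at either pseudocount. For med28 it was 0.0014 with RLE size factors, 0.0012 with DESeq2 and 0.016 at the limit of 5 FPKM. The others changed sign when 1 library was left out, with ranges of -1.07 to 0.24 for pgd, -0.12 to 0.15 for gpx3, -0.12 to 0.19 for npepl1, -0.54 to 0.17 for LOC113661539, -0.90 to 0.37 for txnrd3, -0.20 to 0.030 for txndc12, -0.27 to 0.21 for med28, -0.32 to 0.087 for gpx4 and -0.72 to 1.12 for LOC113648572. Apart from the left-out libraries, the cause was not tested. Depth gives 36 to 132 counts for glrx2 per library, and 3 libraries a group limit what can be called.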
